A study of Arabidopsis thaliana with 4 samples.

Results

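The group IV B-box genes of Arabidopsis thaliana, BBX18 to BBX25, were examined for peaks of RVE5-MYC chromatin immunoprecipitation followed by sequencing (ChIP-seq). The members were taken by their 8 locus identifiers out of 27444 protein-coding genes on the 5 nuclear chromosomes, and all 8 carried their BBX name in the gene table used. A peak was counted for a member when it overlapped the span of the gene with 3000 bp added on both sides. Of 2367 peaks in the 3 lists together, 6 met this rule, 1 in the list of replicate 1, 2 in that of replicate 2 and 3 in that of replicate 3.

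The study holds 3 ChIP replicates with an antibody against MYC and 1 input library made without antibody, all from whole seedlings with overexpression of RVE5-MYC. RVE5 is a MYB-like factor of the REVEILLE family, relatives of the clock proteins CCA1 and LHY. All seedlings were 14 days old and came from long days (16 h light, 8 h dark) at 22 °C. They were moved to 29 °C for 12 h and were collected at zeitgeber time 12 h, that is 12 h after lights on. There is no second condition and no line without the tag, so no change in binding was measured, and signal of the antibody without RVE5-MYC cannot be told apart from binding. The labels name neither the promoter that drives the transgene nor the number of independent lines. They also leave unsaid whether each replicate had its own plants, so the spread between replicates may be technical only.

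B-box proteins are zinc finger factors, and those of group IV carry a tandem pair of B-boxes without the CCT domain found in CONSTANS. They act in the de-etiolation of seedlings together with the bZIP factor HY5, and the ubiquitin ligase COP1 targets several of them for degradation in the dark. BBX20 to BBX23 are known as promoters of photomorphogenesis, the growth programme of light-grown seedlings with a short hypocotyl. BBX18, BBX19, BBX24 and BBX25 are known to favour hypocotyl elongation or to restrain HY5. BBX18 and BBX23 are also known from hypocotyl growth in warmth.

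The group was split: LZF1 (BBX22) had a peak in all 3 lists, STO (BBX24) in 2, BZS1 (BBX20) in 1, and the other 5 members in none. A peak in every list was thus found for 1 of 8 members (12.5%), against 1.81% of all protein-coding genes under the same rule. A peak in at least 2 lists was found for 2 of 8 (25%), against 4.65% of all genes, and a peak in any list for 3 of 8 (37.5%), against 12.8%. By list, 1 of 8 members had a peak in replicate 1, 2 of 8 in replicate 2 and 3 of 8 in replicate 3, against 5.59%, 6.61% and 7.02% of all genes. These shares rest on 1 to 3 genes, and no test of the group was made.

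LZF1 (AT1G78600), a light-regulated B-box factor that promotes photomorphogenesis and pigment accumulation with HY5, carried the strongest peaks of the group. They lay on chromosome 1 from 29566397 to 29567098 in replicate 1, from 29566236 to 29567134 in replicate 2 and from 29566387 to 29567181 in replicate 3 (TAIR10, as for all positions here). A stretch of 702 bp was common to the 3 peaks, which is the whole of the replicate 1 peak. The summits, at 29566938, 29566959 and 29566981 in replicates 1, 2 and 3, fell within 43 bp of each other. The 3 lists therefore placed the highest signal in the same short part of the 702 bp stretch.

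The peaks at LZF1 were broad. They were 702, 899 and 795 bp wide in replicates 1, 2 and 3, against a median of 302, 282 and 293 bp over all peaks of each list. At least 97.9% of the peaks of each list were narrower. In every list the summit stood off the middle of the peak, towards the higher coordinate.

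**Figure D1:**
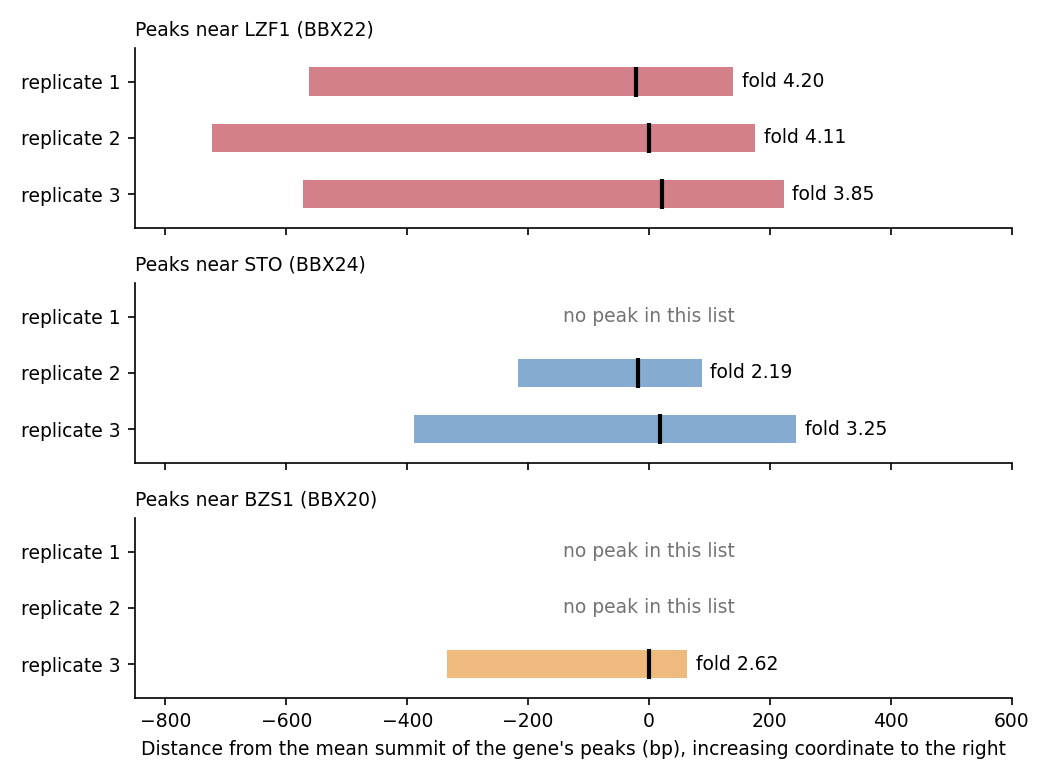
Bars span the peaks near LZF1, STO and BZS1 in each of the 3 lists, placed by distance in bp from the mean summit of that gene's peaks; black ticks mark summits, and the authors' fold is written beside each bar. The summits at LZF1 lie within 43 bp of each other and those at STO within 35 bp, while BZS1 has 1 peak in replicate 3.

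The region at LZF1 also touched a second gene. The 3 peaks joined spanned 946 bp, from 29566236 to 29567181, and reached into both LZF1 and its neighbour NADK3, an NAD(H) kinase gene. The centre of this region lay inside NADK3, whereas all 3 summits lay inside LZF1 and none inside NADK3. A rule that gives a region to the gene at its centre would name NADK3, and a rule that goes by the summit would name LZF1. The mechanosensitive channel gene MSL6 was the only further gene, coding or not, within 3000 bp of the region. The gene table used gives no strand, so whether the summits lie near the start or the end of LZF1 is not stated here.

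The fold over local background at LZF1, the authors' own value for each peak in its list, was 4.20, 4.11 and 3.85 in replicates 1, 2 and 3, with a mean of 4.05 ± 0.182 (SD, n = 3). By fold these peaks ranked 28 of 676, 32 of 827 and 39 of 864. The −log10 of the p-value was 21.0, 21.1 and 19.3, and that of the q-value 16.6, 16.8 and 15.1. The peak was thus among the stronger ones of each list, with 95.5% to 96.1% of the peaks of a list having a lower fold.

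The read pileup at the summit of LZF1 was 62 reads in replicate 1, 64 in replicate 2 and 63 in replicate 3. Exact 95% Poisson intervals ran from 47.5 to 79.5, from 49.3 to 81.7 and from 48.4 to 80.6 reads, so the replicates differed by less than the counting error. The intervals cover counting error only and treat each unit of pileup as 1 independent read. The median pileup over all peaks was 38, 39 and 40 reads, below the lower bound at LZF1 in each list.

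The deposited fold and pileup also give the local background that a peak was set against. This background was 14.0, 14.8 and 15.6 reads at LZF1 in replicates 1, 2 and 3, close to the medians of 14.0, 15.0 and 15.4 reads over all peaks. The signal above it was 48.0, 49.2 and 47.4 reads. The background at LZF1 was thus ordinary for each list, with 47.6% to 57.5% of the peaks having a lower one.

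Among the 199 regions that held a peak of every list, the region at LZF1 was at position 26 in mean rank of the fold, tied with the region at AT3G17020 at a mean rank of 33. The next regions above it had SNC4 and ACD32.1 as the genes nearest to their centres, with folds of 4.12 ± 0.385 and 4.11 ± 0.319. The tied region and the next below had AT3G17020 and DFL2 as their nearest genes, with 4.00 ± 0.352 and 3.99 ± 0.359 (SD, n = 3 for each). The 5 regions differed by less than their spread over the lists.

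**Figure D2:**
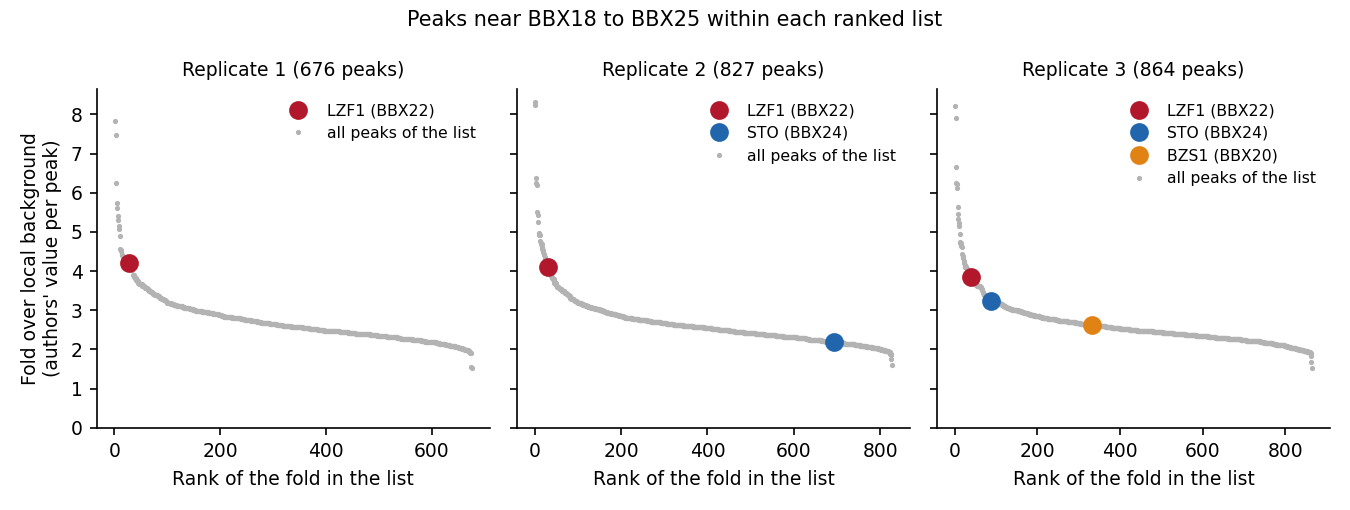
Every peak of each list is plotted by the rank of its fold (horizontal axis) and by its fold over local background (vertical axis, from 0), with the peaks near LZF1, STO and BZS1 in colour. LZF1 sits in the steep upper part of all 3 curves, and STO sits at rank 88 in replicate 3 and at rank 693 in replicate 2.

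STO (BBX24, AT1G06040), which binds HY5 and restrains it in light-grown seedlings, had peaks in replicates 2 and 3 only. They lay on chromosome 1 from 1829803 to 1830107 in replicate 2 and from 1829631 to 1830263 in replicate 3, so that the first lay whole within the second. The summits, at 1830003 and 1830038, were 35 bp apart. Both peaks overlapped the span of STO, and both summits lay outside it, within 1000 bp, with STO as the nearest gene. The region of the 2 peaks also reached into the protein-coding gene AT1G06045, with its centre and both summits outside that gene.

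The 2 peaks at STO had different ranks and folds, though their pileups overlapped within counting error. In replicate 3 the fold was 3.25 with a pileup of 49 reads (95% Poisson interval 36.3 to 64.8) and rank 88 of 864. In replicate 2 it was 2.19 with a pileup of 35 reads (24.4 to 48.7) and rank 693 of 827, in the weakest part of that list. The local background was alike, 15.4 reads in replicate 2 and 14.4 in replicate 3. The mean fold was 2.72 ± 0.750 (SD, n = 2), a spread that is large beside that at LZF1.

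In replicate 1 no peak was listed at STO, and the nearest peak of that list was 48939 bp away from the region. At the median background of the lists a pileup of 30, 31 and 32 reads in replicates 1, 2 and 3 would have reached the weakest −log10 p-value listed, which corresponds to a fold of 2.06 in replicate 1 and 2.02 in replicate 3. The replicate 2 peak at STO, with 35 reads, was the nearer to this level. Its −log10 p-value was 5.25, against a lowest value of 4.01 in that list. The 49 reads of replicate 3 (36.3 to 64.8) lay above the 30 needed at the median background of replicate 1. A pileup of that size would thus have passed that level, whereas a weaker one need not have. Library totals and the background at STO in replicate 1 are unknown, so this does not show what signal replicate 1 held there. The absence of a peak in replicate 1 is not read as absence of signal. Within replicates 2 and 3 LZF1 ranked above STO, at 32 and 39 against 693 and 88.

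BZS1 (BBX20, AT4G39070), a promoter of photomorphogenesis that also acts in brassinosteroid signalling, had 1 peak, in replicate 3, on chromosome 4 from 18208525 to 18208921. Its fold was 2.62, its pileup 38 reads (95% Poisson interval 26.9 to 52.2) over a background of 13.9, and its rank 333 of 864. It lay more than 1000 bp from BZS1 and within 1000 bp of VHA-A3, which encodes a subunit of the vacuolar proton ATPase and was the gene nearest to the summit. The nearest peaks of replicates 1 and 2 were 8404 and 6452 bp away from it, beyond VHA-A3 at RD19. BZS1 was thus counted through a flank that it shares with a closer gene, and in a single list.

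**Figure D3:**
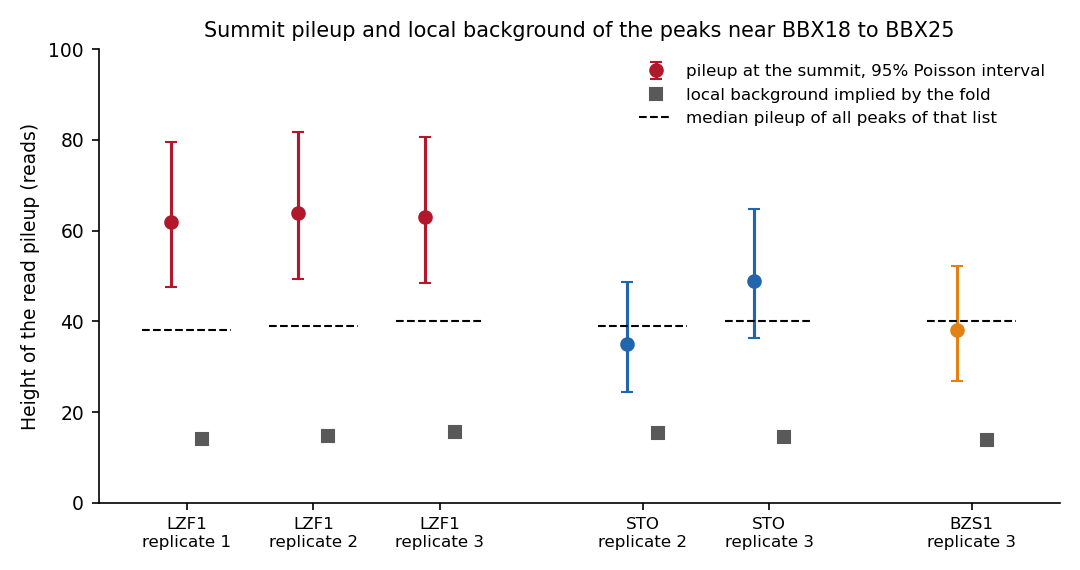
Circles give the read pileup at the summit of each of the 6 peaks near LZF1, STO and BZS1 with its exact 95% Poisson interval, squares the local background implied by the fold, and dashed lines the median pileup over all peaks of that list (vertical axis in reads, from 0). The 3 pileups at LZF1, 62 to 64 reads, have lower bounds above the dashed lines, while the intervals at STO and BZS1 cover them.

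The remaining promoters of photomorphogenesis had no peak within 3000 bp in any list. At BBX21 (AT1G75540), which activates the HY5 gene, each list had a peak between 5000 and 10000 bp away. These belonged to different regions, with folds of 2.23 and 1.98 in replicates 1 and 2 at a region nearest to AT1G75580, and 2.21 in replicate 3 at one nearest to AT1G75560. At BBX23 (AT4G10240), a partner of HY5, the nearest peaks lay more than 10000 bp away in all 3 lists, and more than 50000 bp away in replicates 1 and 3.

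The members that favour elongation were without a peak as well, apart from STO. BBX18 (AT2G21320), which acts on hypocotyl growth in warmth, was the member just outside the rule. Its nearest peaks, between 3000 and 5000 bp away, had folds of 2.38 in replicate 2 and 2.47 in replicate 3 at ranks 533 of 827 and 468 of 864, and AT2G21300 was their nearest gene. Replicate 1 had none within 50000 bp. BZS1 was the member just inside the rule, with its fold of 2.62. BBX19 (AT4G38960), which delays flowering and favours elongation, had its nearest peaks between 10000 and 50000 bp away in all lists. At STH (BBX25, AT2G31380), the close relative of STO, replicate 3 had a peak between 5000 and 10000 bp away with a fold of 2.37, nearest to the desaturase gene ADS2, and replicates 1 and 2 had none within 50000 bp. Widening the flank from the 3000 bp of the rule gave 4 of 8 members with a peak in any list within 5000 bp, against 17.7% of all genes. Within 10000 bp it gave 6 of 8, against 29.1% of all genes.

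The rest of the B-box family served for comparison. Of the 24 other B-box genes 6 had a peak in every list (25%), against 1 of 8 in group IV and 1.81% of all genes. A peak in any list was found for 11 (45.8%), against 3 of 8 in group IV and 12.8% of all genes. In group II, which carries a CCT domain and holds regulators of flowering, 3 of 7 had a peak in every list. In group V, which has a single B-box, 3 of 7 did, and in group I with CONSTANS and in group III none of 6 and none of 4 did. Where the peaks of the 3 lists had to share a region, group V had 2 of 7, BBX28 and BBX31, without BBX29. The share of all genes under this stricter rule was not counted. The differences between the groups were not tested, so nothing is called particular to group IV.

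Within the lists LZF1 ranked below BBX8, which was at rank 3 in each, and changed places with COL9 and BBX13. In replicate 1 LZF1 was at rank 28, ahead of COL9 at 29 and BBX13 at 37. In replicates 2 and 3 it was at 32 and 39, behind COL9 at 11 and 9 and BBX13 at 9 and 17. The order of LZF1, COL9 and BBX13 was thus not the same in every list. In group V, LZF1 ranked ahead of the best peaks of BBX28, at 157, 260 and 62, and of BBX31, at 146, 499 and 319, in replicates 1, 2 and 3. BBX29 had its peaks of replicates 1 and 2 on one side of the gene, at ranks 96 and 61, and that of replicate 3 on the other side, at rank 843.

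**Figure D4:**
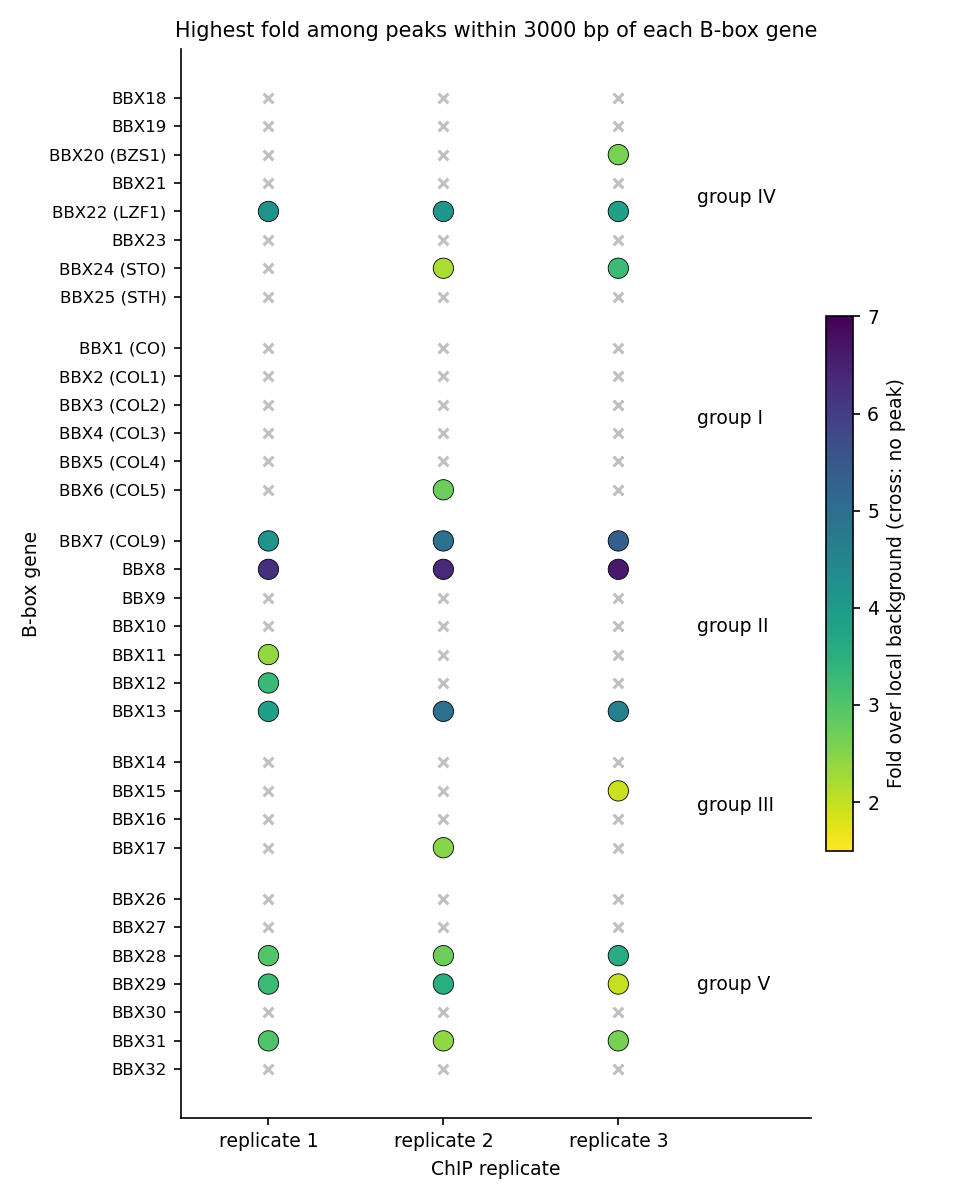
Each row is 1 of the 32 B-box genes, by structural group with group IV at the top, and each column a ChIP replicate; the colour gives the highest fold over local background among peaks within 3000 bp of the gene, and a cross marks no peak. In group IV only LZF1 is filled in all 3 columns (1 of 8), against 3 of 7 genes each in groups II and V and 1.81% of all genes. For BBX29 of group V the replicate 3 peak, with a fold of 1.98, lies on the other side of the gene from those of replicates 1 and 2.

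The genes that work around HY5 had peaks in some lists, but no gene had one in all 3. Of 34 genes of the HY5 and light pathway list, which holds photoreceptors, COP1 and SPA genes, PIF factors and flavonoid genes, none had a peak in every list, 4 had one in at least 2 lists (11.8%) and 10 in any (29.4%), against 1.81%, 4.65% and 12.8% of all genes. HY5 itself, its homologue HYH, COP1 and DET1 had none in any list. The same held for the flavonoid genes CHS, CHI, F3H and FLS1, known targets of HY5. ELIP1, also on the list, did have a peak in replicate 1, with a fold of 2.03 at rank 656 of 676. The 4 genes with a peak in at least 2 lists were PIF4 and PHYB, with folds of 3.51 ± 0.198 and 3.02 ± 0.130, SPA3 with 2.58 ± 0.362 (SD, n = 2 for each), and RUP1. The region at SPA3 was nearest to AT3G15350, and RUP1 had its peaks of replicates 1 and 3 in separate regions, with folds of 2.31 and 1.99. The highest folds of these genes were 3.00 at CRY2 in replicate 1, and 3.37 and 3.65 at PIF4 in replicates 2 and 3. LZF1, with 4.20, 4.11 and 3.85, stood above them in each list.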

How the data were processed

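The files were 1 peak list per ChIP replicate (n = 3), and the input library was not analysed here. The submitters' processing notes name TAIR10 as the build and CASAVA 1.4 as a tool. How reads were aligned, which program and threshold called the peaks, and whether the input served as control, is not given in the sources at hand. The deposited lists give, per the file headers, the pileup signal at the summit, a fold over background, and the −log10 of a p-value and a q-value, each for a peak in its own list; they describe and rank peaks. The local background is (pileup + 1)/fold − 1. A Poisson tail on it gave every deposited −log10 p-value within 0.00124. Library totals are unknown.

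Gene spans, names and neighbours came from a RefSeq table on TAIR10.1. It gives no strand, and no gene coordinates are printed. All 66 listed loci were found, though the symbol BBX11 is not in the table for AT2G47890. No sequence was used, so the planned motif and protein comparisons were not run. Peaks were joined into a region where they shared at least 1 bp. Genes named are the 8 members, list genes with a peak in at least 2 lists, genes closer to a member's peak, and the neighbours of LZF1 in mean rank. HYH, HY5, COP1, DET1, CRY2, ELIP1, MSL6, the flavonoid genes and the genes nearest to peaks outside the rule, and AT1G06045, were named after their values were seen. The members and lists were chosen with earlier results of these data known. No hypothesis test was made, since there is 1 condition. Alternatives changed the flank, the peaks kept, the lists used, the joining of peaks and the gene given to a region. Python 3.11.15 with pandas 2.3.3 and scipy 1.17.1 was used, and the counting was tested on simulated peaks.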

Additional observations from a re-analysis of the deposited data

How the results depend on the processing

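LZF1 kept a peak in every list used under each flank (none, 1000, 3000 and 5000 bp), with the best 50% of each list by p-value, and without any 1 replicate. These outcomes followed from the main result and add no support to it. The 3 peaks overlap LZF1 itself and rank 29, 38 and 46 by p-value in replicates 1, 2 and 3. A gene with a peak in all 3 lists also keeps one in every list left. Members with a peak in every list numbered 1 to 2 over the 3 left-out replicates, with STO joining LZF1 without replicate 1, since only replicates 2 and 3 then had to hold a peak; the share of all genes was 2.64% to 2.87%, against 1.81% with all lists. LZF1 alone stood against 0.492% of all genes without flank, 1.01% with 1000 bp, 2.73% with 5000 bp and 1.21% with the best 50% of each list. Members with a peak in at least 2 lists numbered 1 to 2 over the left-out replicates, as STO was lost without replicate 2 or 3. The share of all genes was again 2.64% to 2.87%, since with 2 lists left this is the same rule as a peak in every list. With the best 50% of each list the number was 1, against 2.55% of all genes, as the replicate 2 peak of STO fell away, and with 5000 bp it was 3 with BBX18, against 6.81%. BZS1 had no peak without flank, with 1000 bp or without replicate 3. Given to the gene nearest to its centre only, a region of every list fell to no member (0), and given to the gene nearest to the mean summit, an alternative added after the data were seen, to 1, LZF1. The share of all genes under these assignments was not counted. The fold at LZF1 was 3.98 to 4.15 over the left-out replicates, and as a rank it stood above 95.8% of the peaks of its list on average. Requiring summits within 100 bp could not change the fold, since the 3 summits lie within 43 bp. Requiring a shared region, also added after the data were seen, left the count at 1, as the 3 peaks at LZF1 overlap. For this rule too the share of all genes was not counted. No paired analysis was possible because the peak lists are all of 1 group, the ChIP. At the median background of replicate 1 a fold of 2.06 matches the weakest p-value listed; the calling threshold and the library totals are unknown, so the absence of a peak is not read as absence of signal.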

Other observations

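BBX28 of group V had regions in 3 separate places within 3000 bp. The one of all 3 lists, on chromosome 4 from 13674872 to 13675938, had a fold of 3.11 ± 0.438 (SD, n = 3). Those of replicates 1 and 3 lay from 13672480 to 13672837 (2.70 ± 0.127), where AT4G27300 was the gene nearest to the mean summit, and from 13676958 to 13677395 (2.61 ± 0.0505; SD, n = 2 for each). No member of BBX18 to BBX25 had more than 1 region. The peak of replicate 1 nearest to BZS1, with RD19 nearest to its summit, had a fold of 4.20 and rank 27 of 676, next to LZF1 at rank 28 in the same list, and belonged to a region of all 3 lists. These genes were named after their values were seen.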
